A study of Mus musculus with 6 samples.

Results

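Transcripts of 10 genes of TGF-beta signaling were measured in cultured mouse BM cells with or without the Plek2 inhibitor NUP-17d. The genes were chosen by name and comprise the ligand Tgfb1, the receptors Tgfbr1 and Tgfbr2, the signal-carrying SMADs Smad1 and Smad5, the inhibitory SMADs Smad6 and Smad7, and the inhibitors of DNA binding Id1, Id2 and Id3. These 10 were among the 17060 genes with reads in at least 1 culture, and all 10 passed the filter on low counts that left 12306 genes for testing. With NUP-17d, 5 of the 10 transcripts rose relative to the rest of the transcriptome (Tgfb1, Tgfbr1, Tgfbr2, Smad1 and Smad7), Id3 fell, and Id1, Id2, Smad5 and Smad6 did not pass the test. Of all genes tested, 16.4% were called higher and 18.9% lower. The Smad1 call was lost with DESeq2 and in 2 of the 6 fits without 1 culture.

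TGF-beta is secreted in a latent form and, once released, binds a type II receptor that recruits and activates a type I receptor. The activated type I receptor phosphorylates Smad2 and Smad3, while the receptors for bone morphogenetic proteins (BMPs) phosphorylate Smad1 and Smad5, and both sets enter the nucleus with Smad4. Smad6 and Smad7 are induced by the pathway and damp it, and the Id genes are widely used as readouts of BMP signaling, their products binding E proteins and keeping them off DNA. In blood formation TGF-beta is known as a brake on the growth of progenitors, and BMP signals are known to act in stress erythropoiesis.

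Lineage-negative BM cells of WT mice were grown in EPO-containing medium for 48 hours, with 10 μM NUP-17d or with the solvent DMSO alone. There were 3 cultures in each group, and the study added the compound at the start of culture in its comparable assays. Both groups therefore share the genotype, the purification and EPO, the hormone that drives erythroid differentiation, and the age of the mice was not given. No source says that the cultures came from separate animals, so the p-values below measure the spread between these cultures only.

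Library totals were 20278433 to 20419018 estimated reads with DMSO and 20076409 to 20170197 with NUP-17d. Hemoglobin genes took 19.1% ± 1.04 (SD, n = 3) of the counts with DMSO and 12.2% ± 0.723 (n = 3) with NUP-17d, with no overlap between cultures (exact 2-sided permutation p = 0.1, the smallest that 3 against 3 allows). The labels call the harvested cells erythroblasts, and all 28 erythroblast markers looked for were detected and fell with NUP-17d. Their summed level was 231050 to 265890 CPM (reads per gene after TMM scaling, put on the same total) with DMSO and 128600 to 143380 CPM with NUP-17d. Of the megakaryocyte markers, 8 of 12 rose and 1 fell, with sums of 618.95 to 666.04 CPM and then 710.71 to 745.92 CPM. Of the monocyte and macrophage markers, 4 of 16 rose and 4 fell, with sums of 2985.6 to 3237.2 CPM and then 3338.2 to 3655.8 CPM. Progenitor markers split 4 higher and 1 lower of 14 (619.73 to 629.89 CPM, then 647.13 to 661.01 CPM), neutrophil markers 5 higher and 2 lower of 14 (4319 to 4491.3 CPM, then 4474.7 to 4747.3 CPM), and mast cell markers 1 higher and 3 lower of 7 tested (237.3 to 254.27 CPM, then 209.53 to 216.94 CPM). Of 9 tested lymphoid markers 2 were lower, with sums of 18.082 to 20.253 CPM and then 17.89 to 18.151 CPM. Of the 6 tested stromal markers, 0 passed with edgeR or DESeq2 (1 at an unadjusted p under 0.05 with edgeR, and 4 higher under library totals only). Their sums were 55.249 to 57.107 CPM with DMSO and 56.744 to 61.087 CPM with NUP-17d. These marker calls are under TMM scaling and shifted under library totals only, with 26 of the erythroblast markers lower, 11 megakaryocyte markers higher and 1 lower, 10 macrophage markers higher and 0 lower, and 12 progenitor markers higher and 0 lower. Under that scaling 11 neutrophil markers were higher and 1 lower, 2 mast cell markers higher and 0 lower (1 lower at an unadjusted p under 0.05), and 2 lymphoid markers higher and 1 lower. Library totals only called 68.7% of all genes tested higher and 5.34% lower, where TMM scaling called 16.4% higher and 18.9% lower. The mast cell marker Tpsab1 and the stromal marker Col3a1 were at 0 in every culture. In such a mixed culture, fewer cells of a type and less RNA per cell cannot be told apart, and the part of these shifts in the results below was not tested. Plek2 itself, which the compound binds rather than deletes, fell from 52.6 ± 2.85 CPM to 39.9 ± 1.32 CPM (log2 fold change -0.40, SE 0.048). Under library totals only its value was -0.13 (edgeR adjusted p = 0.0262), and with limma on FPKM it did not pass (adjusted p = 0.0543 to 0.0823 over 3 settings).

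Counts were tested with edgeR's quasi-likelihood test after TMM scaling, which sets the libraries on a common scale through the bulk of genes. Calls needed a Benjamini-Hochberg adjusted p under 0.05 over all 12306 genes. Of these genes 35.3% were called in either direction, 16.4% higher and 18.9% lower, so a called gene was common in this comparison. Among the 10 TGF-beta, SMAD and ID genes 5 were higher and 1 was lower, and their median log2 fold change was 0.20, against 0.014 over all genes tested. The 10 genes were chosen with earlier results of these data known, and no test of them as a set was run. The cultures of the 2 groups did not overlap for 6 of the 10 genes, and did not overlap for 46.0% of all genes tested.

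**Figure D1:**
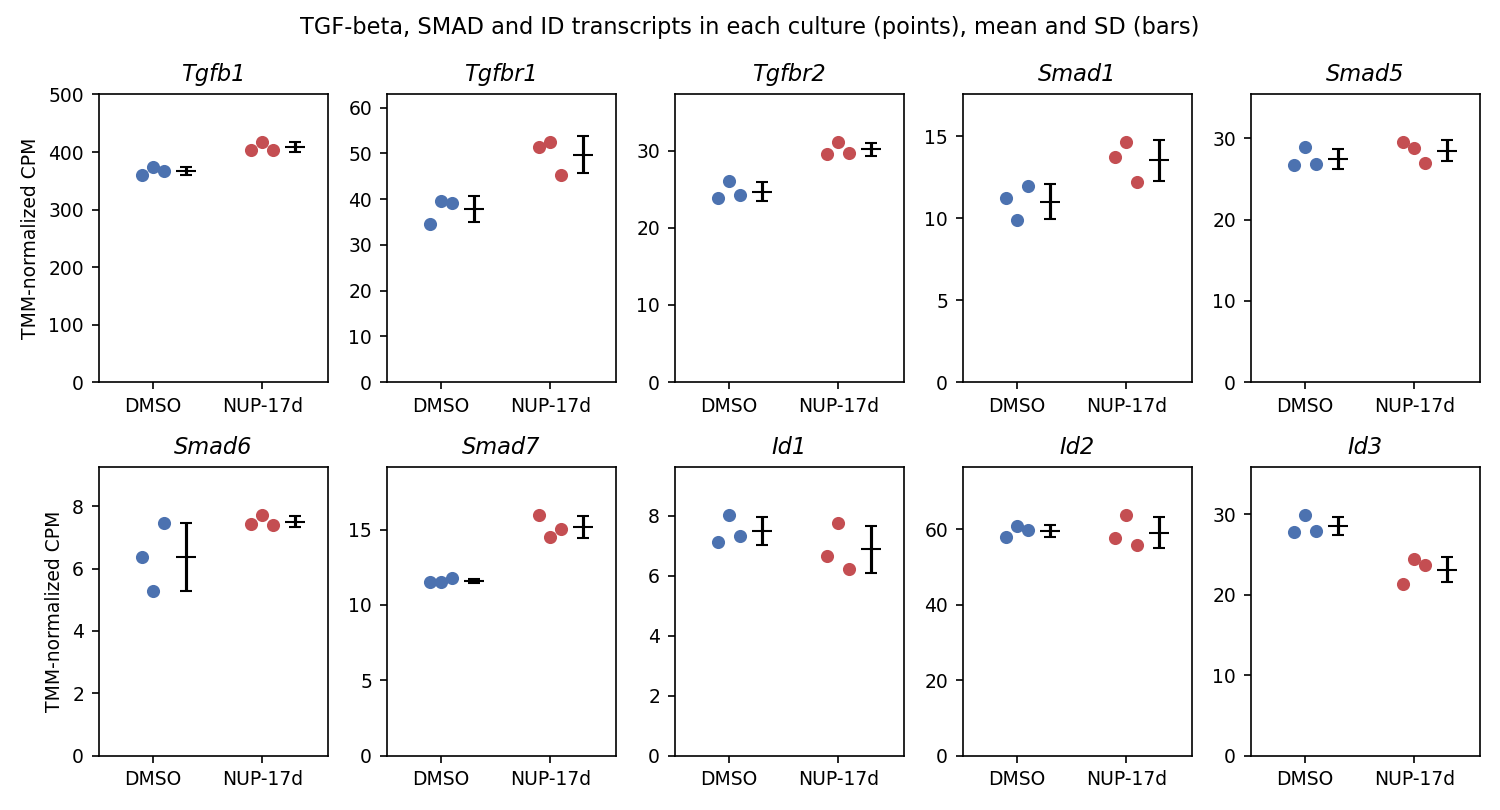
TMM-normalized CPM (vertical axes, from 0) of each of the 10 genes in each of the 3 DMSO and 3 NUP-17d cultures (points), with the group mean and SD (bars). The NUP-17d cultures lie above all DMSO cultures for Tgfb1, Tgfbr1, Tgfbr2, Smad1 and Smad7, below them for Id3, and overlap them for Smad5, Smad6, Id1 and Id2.

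Tgfb1 encodes the TGF-beta ligand made by many blood cells, and is annotated at chr7:25687002-25705077 of the mouse build GRCm38. Its level was 359, 374 and 367 CPM in the DMSO cultures and 403, 418 and 404 CPM in the NUP-17d cultures. Every NUP-17d culture was above every DMSO culture. The log2 fold change was 0.16 (SE 0.034, adjusted p = 0.000640, edgeR), a 1.11-fold higher level, which is the smallest change among the 6 called genes.

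Both TGF-beta receptors rose. Tgfbr1, the type I receptor kinase (chr4:47353222-47414926), stood at 34.7, 39.6 and 39.2 CPM with DMSO and at 51.4, 52.5 and 45.2 CPM with NUP-17d. The lowest NUP-17d culture was above the highest DMSO culture, and the log2 fold change of 0.39 (SE 0.057, adjusted p = 3.99e-06, edgeR) was 1.31-fold. Tgfbr2, the type II receptor that binds the ligand (chr9:116087695-116175363), stood at 23.8, 26.0 and 24.2 CPM with DMSO and at 29.6, 31.2 and 29.7 CPM with NUP-17d. The groups were again apart, with a log2 fold change of 0.29 (SE 0.055, adjusted p = 0.000167, edgeR). RefSeq places a long noncoding gene across part of each receptor gene (Gm32435 over Tgfbr1 and Gm31292 over Tgfbr2). Whether either has counts of its own was not checked.

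The signal-carrying SMADs of the BMP branch differed in their values. Smad1 (chr8:79338395-79399428) was at 11.2, 9.86 and 11.9 CPM with DMSO and at 13.7, 14.7 and 12.2 CPM with NUP-17d. The groups came close but did not overlap, and the log2 fold change was 0.30 (SE 0.087, adjusted p = 0.00790, edgeR). That call was lost with DESeq2 (adjusted p = 0.0675), without DMSO replicate 2 (edgeR adjusted p = 0.0743, log2 fold change 0.23) and without NUP-17d replicate 2 (edgeR adjusted p = 0.0516, log2 fold change 0.24). Smad5 (chr13:56703010-56742378), which transmits the same receptor signals, was at 26.7, 28.9 and 26.8 CPM with DMSO and at 29.6, 28.9 and 27.0 CPM with NUP-17d. Its groups overlapped, with a log2 fold change of 0.053 (95% interval -0.063 to 0.17, adjusted p = 0.499, edgeR).

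Among the inhibitory SMADs, Smad7 rose. Smad7, which targets the activated type I receptors for degradation (chr18:75367365-75395935), was at 11.5, 11.5 and 11.8 CPM with DMSO and at 16.0, 14.5 and 15.0 CPM with NUP-17d. The DMSO cultures lay close together, all below the NUP-17d cultures, and the log2 fold change was 0.39 (SE 0.074, adjusted p = 0.000155, edgeR). RefSeq places the long noncoding gene Gm41776 over part of Smad7, and whether it has counts of its own was not checked. Smad6, which preferentially restrains BMP signals (chr9:63953076-64022085), was at 6.36, 5.27 and 7.47 CPM with DMSO and at 7.42, 7.71 and 7.38 CPM with NUP-17d. The highest DMSO culture lay within the NUP-17d range, and the log2 fold change of 0.24 (95% interval -0.00031 to 0.48, adjusted p = 0.114, edgeR) did not pass. Smad6 was the lowest of the 10 in reads, at 100 to 172 estimated reads per culture, and its value rested on single DMSO cultures. Without DMSO replicate 2 it was 0.12 (edgeR adjusted p = 0.505), and without DMSO replicate 3 it was 0.37 (edgeR adjusted p = 0.0283).

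The ID genes, whose products sequester E proteins and so restrain basic helix-loop-helix factors, did not rise under TMM scaling. Id3 (chr4:136143822-136145392) was at 27.9, 29.9 and 27.9 CPM with DMSO and at 21.3, 24.4 and 23.7 CPM with NUP-17d. All NUP-17d cultures were below all DMSO cultures, with a log2 fold change of -0.30 (SE 0.060, adjusted p = 0.000207, edgeR). Id2 (chr12:25093799-25096092) was at 57.9, 60.9 and 59.9 CPM with DMSO and at 57.6, 63.7 and 55.9 CPM with NUP-17d. The NUP-17d cultures of Id2 spanned the DMSO range on both sides, and the log2 fold change was -0.012 (95% interval -0.11 to 0.085, adjusted p = 0.867, edgeR). Id1 (chr2:152736251-152737410) was at 7.13, 8.01 and 7.31 CPM with DMSO and at 6.65, 7.76 and 6.23 CPM with NUP-17d. Its groups overlapped at 129 to 173 estimated reads per culture, with a log2 fold change of -0.12 (95% interval -0.35 to 0.10, adjusted p = 0.415, edgeR).

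Some calls, and the signs of Id1 and Id2, depended on how the libraries were scaled, while Tgfb1, Tgfbr1, Tgfbr2, Smad1 and Smad7 stayed called higher. Scaling by library totals alone moved the median log2 fold change of all tested genes from 0.014 to 0.28, with 68.7% of them called higher and 5.34% lower. Under that scaling 8 of the 10 genes were called higher and 0 lower by edgeR, with 0 lower at an unadjusted p under 0.05 too, and their median was 0.46. Id3 then had a log2 fold change of -0.038 (edgeR adjusted p = 0.605), and Id1 (0.15, adjusted p = 0.246) and Id2 (0.25, adjusted p = 0.000215) had values above 0. Relative to the median of all genes the distances were nearly the same under both scalings, at -0.32 for Id3 in each, and at 0.38 for Tgfbr1 and 0.37 for Smad7 in each. A change of scaling shifts all genes by nearly the same amount, so this was given in advance and does not test the calls. Removing the hemoglobin genes, or these and the erythroblast markers, before TMM scaling left each of the 10 genes with its direction and its side of the threshold.

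**Figure D2:**
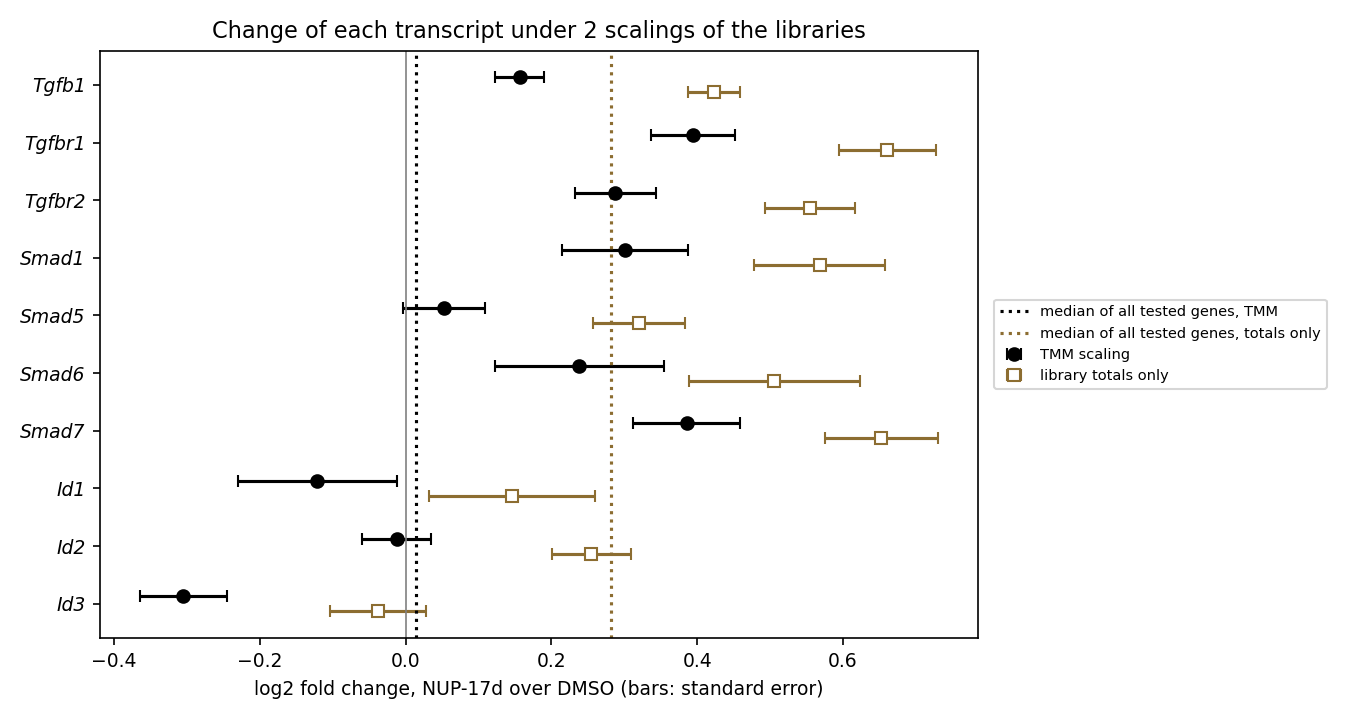
Log2 fold change of each gene, NUP-17d over DMSO (horizontal axis), under TMM scaling (filled circles) and under library totals only (open squares), with standard errors (bars) and the median of all 12306 tested genes under each scaling (dotted lines). The squares sit to the right of the circles for all 10 genes, and Id3 lies farthest left under both scalings, at -0.30 and -0.038.

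The ratio of 2 transcripts within a culture needs no scaling between libraries. The Id2 to Id3 ratio of estimated counts was 2.08, 2.04 and 2.14 with DMSO and 2.70, 2.61 and 2.36 with NUP-17d. It was higher in every NUP-17d culture, by 0.29 on the log2 scale, and by 0.25 to 0.35 as single cultures were left out. The Smad1 to Smad5 ratio was 0.420, 0.341 and 0.445 with DMSO and 0.464, 0.508 and 0.451 with NUP-17d. These groups were apart by a narrow margin, with a difference of 0.25 on the log2 scale that ranged from 0.13 (without DMSO replicate 2) to 0.32 (without DMSO replicate 3) as single cultures were left out. The Id1 to Id2 ratio was 0.123, 0.132 and 0.122 with DMSO and 0.116, 0.122 and 0.112 with NUP-17d. It was lower in every NUP-17d culture, by a small amount (log2 difference -0.11, and -0.15 to -0.078 as single cultures were left out). The Id1 to Id3, Smad6 to Smad7 and Tgfbr1 to Tgfbr2 ratios overlapped between the groups, with log2 differences of 0.18, -0.13 and 0.11. With 1 culture left out the Smad6 to Smad7 difference lay between -0.26 (without DMSO replicate 2) and -0.021 (without DMSO replicate 3), that of Tgfbr1 to Tgfbr2 between 0.066 (without NUP-17d replicate 1) and 0.16 (without NUP-17d replicate 3), and that of Id1 to Id3 between 0.13 and 0.27. No test was run on the ratios, and an unequal change within a pair does not say which of its genes moved.

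**Figure D3:**
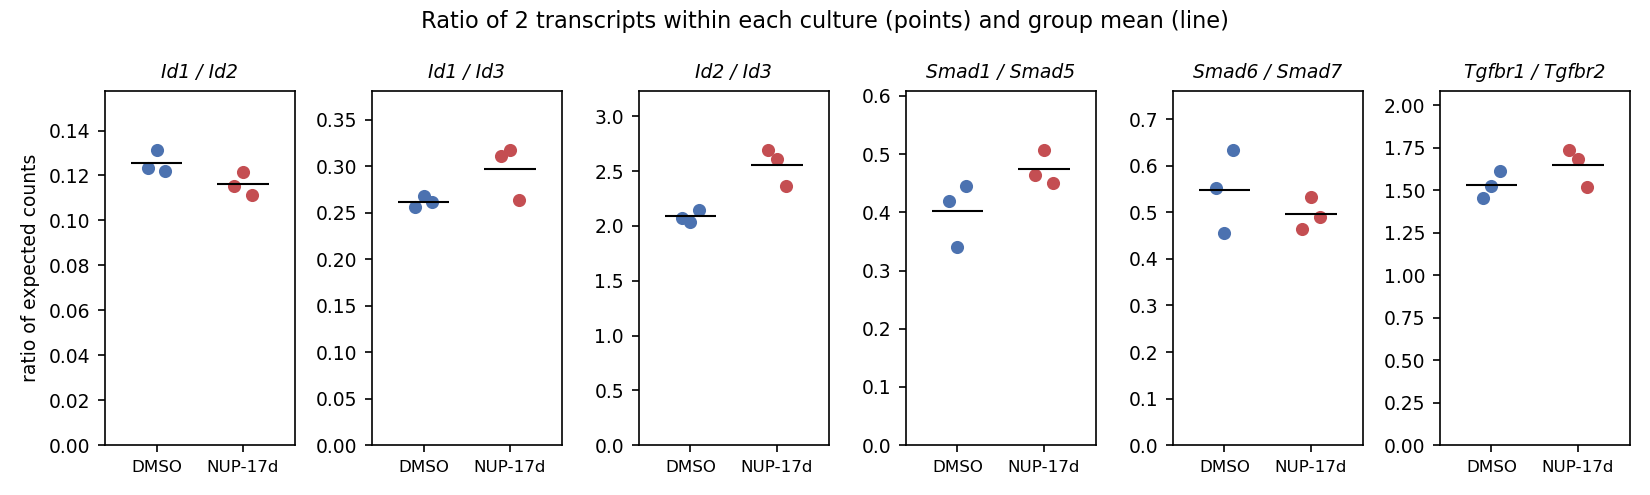
Ratio of estimated counts of 2 genes within each culture (points; vertical axes from 0) and the mean of each group (lines), for 6 pairs. The 3 NUP-17d cultures are above all DMSO cultures for Id2 to Id3 and Smad1 to Smad5, below them for Id1 to Id2, and overlap them for the other pairs.

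Levels can be compared between genes only per transcript length, for which the deposited FPKM values were used. With DMSO, Tgfb1 was the highest at 151 ± 6.77 FPKM (SD, n = 3), followed by Id2 at 42.3 ± 2.16 FPKM, Id3 at 27.4 ± 1.69 FPKM and Id1 at 7.41 ± 0.624 FPKM. The receptors came next, Tgfbr1 at 5.96 ± 0.572 FPKM and Tgfbr2 at 4.67 ± 0.319 FPKM, so the ligand transcript was 25.4 times as abundant as that of its type I receptor. The SMADs were the lowest, from Smad5 at 3.72 ± 0.247 FPKM and Smad1 at 3.16 ± 0.281 FPKM to Smad7 at 2.34 ± 0.0781 FPKM and Smad6 at 1.93 ± 0.329 FPKM. Only Smad7 and Smad6 were neighbors whose DMSO cultures overlapped.

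With NUP-17d the top of the order was the same, with Tgfb1 at 203 ± 5.99 FPKM, Id2 at 50.6 ± 4.03 FPKM and Id3 at 26.7 ± 1.84 FPKM. Tgfbr1, at 9.45 ± 0.872 FPKM, then stood above Id1, at 8.22 ± 1.03 FPKM, and Smad1, at 4.69 ± 0.487 FPKM, stood beside Smad5, at 4.66 ± 0.267 FPKM. The cultures of both pairs overlapped, so neither order exceeded the spread. Tgfbr2 was at 6.86 ± 0.248 FPKM, Smad7 at 3.69 ± 0.189 FPKM and Smad6 at 2.74 ± 0.0917 FPKM. FPKM values carry no correction for composition, so they rank genes within a group, and the differences between groups are those of the counts above.

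**Figure D4:**
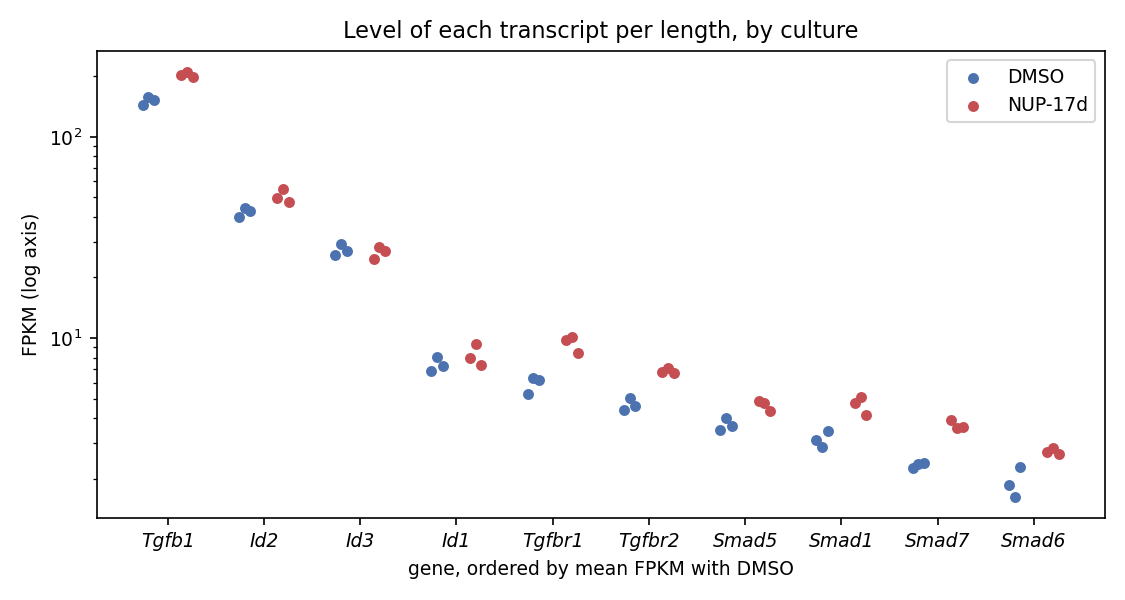
FPKM of each gene in each culture (points; log axis), with genes ordered by their mean with DMSO. Tgfb1 lies highest, between 144 and 210 FPKM over both groups, and Smad6 lowest, between 1.63 and 2.84 FPKM.

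RefSeq promoter windows (250 bases before to 50 after an annotated start, build GRCm38.p6) were held for 8 of the 10 genes and were searched on both strands for letters that SMAD proteins are known to bind. Smad5 had 3 windows and Tgfbr1 had 2. A gene was counted if any of its windows held the motif, whereas the percentages count single windows. The palindrome GTCTAGAC was found in 0.213% of 32851 promoter windows and, among the 8 genes, in Smad6, beginning at position -4 when the start is position 0. The pentamer GTCTG, read as CAGAC from the opposite strand, was in 49.6% of windows and in Id3, Smad5, Tgfbr1 and Tgfbr2. The GC-rich element GGCGCC was in 11.9% of windows and in Id2, Smad5 and Tgfbr1, and its variant GGAGCC, read as GGCTCC from the opposite strand, was in 30.8% of windows and in Id2, Id3, Smad5, Smad6, Tgfb1, Tgfbr1 and Tgfbr2. Smad5 held the variant only in window 3. G and C made up 52.0% to 77.0% of the windows of these 8 genes, against a median of 52.7% over all windows. The part of this base content in the matches was not tested. These motifs do not overlap each other in the stretches shown, and in Tgfbr2 the variant element is followed directly by CAGAC. Smad1 held none of the 4 motifs in this window, which says only that these letters are not in it. A match describes letters and not binding.

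Shown 5′ to 3′, from 250 bases before the start to the first 4 bases from it, are Id2 and Id3, related genes of which Id3 was called and Id2 was not, Tgfbr1 (its first window) and Tgfbr2, the receptors that rose, and Smad6, the gene with the palindrome. They lie at chr12:25096089-25096342 (minus strand) for Id2, chr4:136143572-136143825 (plus strand) for Id3, chr4:47352972-47353225 (plus strand) for Tgfbr1, chr9:116175360-116175613 (minus strand) for Tgfbr2 and chr9:64022056-64022309 (minus strand) for Smad6. Capitals mark the motifs.
Id2: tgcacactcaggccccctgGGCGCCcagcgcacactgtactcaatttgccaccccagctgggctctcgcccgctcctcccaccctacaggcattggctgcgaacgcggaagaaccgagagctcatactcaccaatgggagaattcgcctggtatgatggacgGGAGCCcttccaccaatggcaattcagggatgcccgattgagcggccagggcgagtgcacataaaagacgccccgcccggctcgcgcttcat
Id3: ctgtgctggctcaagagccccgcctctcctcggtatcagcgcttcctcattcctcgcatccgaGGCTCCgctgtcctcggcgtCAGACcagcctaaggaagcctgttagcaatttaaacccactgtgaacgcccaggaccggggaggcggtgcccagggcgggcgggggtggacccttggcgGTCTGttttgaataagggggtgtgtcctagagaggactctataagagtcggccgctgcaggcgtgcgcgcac
Tgfbr1: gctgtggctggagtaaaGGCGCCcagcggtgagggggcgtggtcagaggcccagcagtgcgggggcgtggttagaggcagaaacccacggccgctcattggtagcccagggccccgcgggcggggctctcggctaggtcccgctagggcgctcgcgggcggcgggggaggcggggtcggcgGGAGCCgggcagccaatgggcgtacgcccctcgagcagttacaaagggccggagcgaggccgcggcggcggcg
Tgfbr2: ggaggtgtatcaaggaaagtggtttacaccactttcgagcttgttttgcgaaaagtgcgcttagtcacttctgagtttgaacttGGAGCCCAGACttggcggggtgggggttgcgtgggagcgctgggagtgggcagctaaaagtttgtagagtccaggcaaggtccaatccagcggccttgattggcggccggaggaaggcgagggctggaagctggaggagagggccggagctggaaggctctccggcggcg
Smad6: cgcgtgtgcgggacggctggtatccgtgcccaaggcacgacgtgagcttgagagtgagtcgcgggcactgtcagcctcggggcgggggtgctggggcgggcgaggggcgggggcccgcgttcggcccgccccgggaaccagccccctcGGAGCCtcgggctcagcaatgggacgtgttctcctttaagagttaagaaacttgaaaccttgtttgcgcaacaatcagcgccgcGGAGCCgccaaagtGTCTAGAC

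The rest of the pathway was read from lists of 120 further genes by role, of which 75 were tested. Of these 18 were higher and 13 were lower, so 41.3% were called, against 35.3% of all genes tested, and their median log2 fold change was 0.071. Under library totals only the split was 51 higher and 4 lower. That scaling called 68.7% of all genes tested higher and 5.34% lower, shares that stand beside each such count below. The latency, receptor and SMAD lists, with 0 called lower by edgeR, also had 0 lower at an unadjusted p under 0.05 and 0 lower with DESeq2, library totals only and limma. Of 10 tested ligands, 1 was higher, Tgfb1 itself, and 2 were lower (2 higher and 0 lower under library totals only). The lower ones were Gdf15, a stress-induced ligand made by erythroblasts, at 78.7 ± 1.88 CPM and then 64.2 ± 4.79 CPM (log2 fold change -0.29), and Gdf3 at 11.3 ± 0.405 CPM and then 9.14 ± 0.267 CPM (log2 fold change -0.31, a call lost with DESeq2 at adjusted p = 0.0549). Both values lay near 0 under library totals only, at -0.027 and -0.042. Bmp5 was at 0.969 ± 0.152 CPM and then 0.664 ± 0.0873 CPM and did not pass (log2 fold change -0.54, edgeR adjusted p = 0.151). The other 19 listed ligands, Bmp2, Bmp4 and Tgfb2 among them, were below the filter, and Inhbb, Inhbc, Bmp10 and Gdf2 were at 0 in every culture.

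Genes that store and release latent TGF-beta were called in 1 direction, with 5 of 10 tested higher, 0 lower and a median log2 fold change of 0.28 (10 higher under library totals only). Of all genes tested, 16.4% were called higher and 18.9% lower under TMM scaling, and 68.7% and 5.34% under library totals only. Thbs1, thrombospondin-1, which can activate latent TGF-beta, rose from 430 ± 4.31 CPM to 549 ± 32.8 CPM (log2 fold change 0.35, SE 0.038). Ltbp3, a latent TGF-beta binding protein, rose from 9.27 ± 0.965 CPM to 13.1 ± 0.787 CPM (log2 fold change 0.50, SE 0.087). Nrros, which holds latent TGF-beta on myeloid cells, rose by less, from 138 ± 5.67 CPM to 152 ± 2.24 CPM (log2 fold change 0.13), and its call was lost without DMSO replicate 1 (edgeR adjusted p = 0.0545). Thbs1 is also made by megakaryocytes and macrophages, whose marker sums moved as given above, and the part of those cells was not tested.

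Of 3 tested antagonists, Twsg1, which binds BMPs, rose from 27.7 ± 0.764 CPM to 32.6 ± 3.01 CPM (log2 fold change 0.23, SE 0.060). The decoy receptor Bambi had a like value of 0.24 but did not pass (edgeR adjusted p = 0.249) at 2.90 and 3.41 CPM, and Dand5 was at 0.034 (adjusted p = 0.808). Under library totals only all 3 were called higher, with log2 fold changes of 0.50 for Twsg1, 0.50 for Bambi (edgeR adjusted p = 0.00538) and 0.30 for Dand5 (edgeR adjusted p = 0.00666). That scaling called 68.7% of all genes tested higher. Chrd was at 0 in every culture.

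Of 12 tested receptors and co-receptors 5 were higher, Tgfbr1 and Tgfbr2 included, and 0 were lower (9 higher under library totals only). The share called was 41.7%, against 35.3% of all genes tested in either direction. Library totals only called 68.7% of all genes tested higher. The BMP type II receptor Bmpr2 rose from 31.6 ± 0.554 CPM to 37.5 ± 0.763 CPM (log2 fold change 0.25, SE 0.049). The activin receptor Acvr2b was at 3.76 ± 0.223 CPM and then 4.94 ± 0.497 CPM (log2 fold change 0.39, SE 0.137), and the co-receptor Eng at 43.3 ± 1.68 CPM and then 48.2 ± 2.01 CPM (log2 fold change 0.16, SE 0.047). The calls of Acvr2b and Eng were lost with DESeq2, at adjusted p = 0.146 and 0.0819. With 1 culture left out, Acvr2b was no longer called in 4 of 6 fits (edgeR adjusted p = 0.0558 to 0.118), namely those without DMSO replicate 2 or 3 or without NUP-17d replicate 2 or 3. Eng lost it without DMSO replicate 1 (adjusted p = 0.0605) and without NUP-17d replicate 1 (adjusted p = 0.0683).

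Of all 8 SMADs 3 were higher and 0 were lower, Smad4 joining Smad1 and Smad7 (7 higher under library totals only). The 37.5% called lay near the 35.3% of all genes tested, and library totals only called 68.7% of all genes tested higher. Smad4, the partner shared by both branches, was at 27.2 ± 1.72 CPM and then 30.2 ± 0.558 CPM (log2 fold change 0.15, SE 0.055, edgeR adjusted p = 0.0363). Its call was lost with DESeq2 (adjusted p = 0.196) and in 5 of the 6 fits without 1 culture, all but the fit without DMSO replicate 2 (edgeR adjusted p = 0.0546 to 0.148). Smad3, a carrier of the TGF-beta signal, had a similar value of 0.16 without passing (adjusted p = 0.0977), though it passed without NUP-17d replicate 3 (adjusted p = 0.0331). Smad9 was at 1.02 ± 0.251 CPM and then 0.938 ± 0.317 CPM and did not pass (log2 fold change -0.13, edgeR adjusted p = 0.770). Its value was 0.14 under library totals only.

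Proteins that restrain, modify or assist SMADs went both ways, 6 higher and 7 lower of 28 tested, with a median of 0.042 (21 higher and 2 lower under library totals only). The share called was 46.4%, against 35.3% of all genes tested, and library totals only called 68.7% of all genes tested higher. The 3 described next were picked by lowest p-value and are all among the 7 lower ones. Tgif1, given below, is among the 6 higher ones. The largest change of the list was the fall of Ldlrad4, a membrane protein that keeps Smad2 and Smad3 from the receptor, from 48.7 ± 2.65 CPM to 24.9 ± 1.16 CPM (log2 fold change -0.97, SE 0.053). Usp15, a deubiquitinase that acts on receptor-bound SMAD complexes, fell from 369 ± 12.0 CPM to 257 ± 3.49 CPM (log2 fold change -0.52, SE 0.035). Its relative Usp4 was lower by -0.29 (SE 0.036) on the log2 scale, a value of -0.024 under library totals only.

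Of 5 tested genes for E proteins and their pairing factors 1 was higher and 2 were lower (3 higher and 2 lower under library totals only). The share called was 60.0% of these few genes, against 35.3% of all genes tested. Tal1 and Lyl1, hematopoietic factors that pair with E proteins, fell from 463 ± 18.6 CPM to 348 ± 5.59 CPM (log2 fold change -0.41, SE 0.036) and from 162 ± 3.38 CPM to 109 ± 5.12 CPM (log2 fold change -0.56, SE 0.038). The E protein gene Tcf4 rose from 30.3 ± 1.39 CPM to 35.5 ± 0.488 CPM (log2 fold change 0.23, SE 0.051). The other E protein genes, Tcf3 and Tcf12, did not pass. Tal1 is itself an erythroid regulator, and it fell alongside the 28 erythroblast markers. The remaining ID gene, Id4, was at 0 in every culture.

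Known SMAD target genes showed no common direction, with 3 of 15 tested higher and 3 lower and a median of -0.012 (10 higher and 0 lower under library totals only). The share called was 40.0%, against 35.3% of all genes tested, and library totals only called 68.7% of all genes tested higher. Atoh8, a BMP target, rose from 9.47 ± 0.0903 CPM to 14.3 ± 1.40 CPM (log2 fold change 0.60, SE 0.084). Tgif1, a corepressor induced by TGF-beta, rose from 20.6 ± 1.37 CPM to 26.4 ± 2.67 CPM (log2 fold change 0.36, SE 0.069). The other higher target was Smad7, and Id3 was among the lower ones. Since Id1, Id2, Id3, Smad6 and Smad7 are all in this list, it is not separate from the 10 genes, and its median is the value of Id2. Junb fell from 122 ± 4.92 CPM to 104 ± 5.84 CPM (log2 fold change -0.23, SE 0.042), but its value was 0.037 under library totals only.

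**Figure D5:**
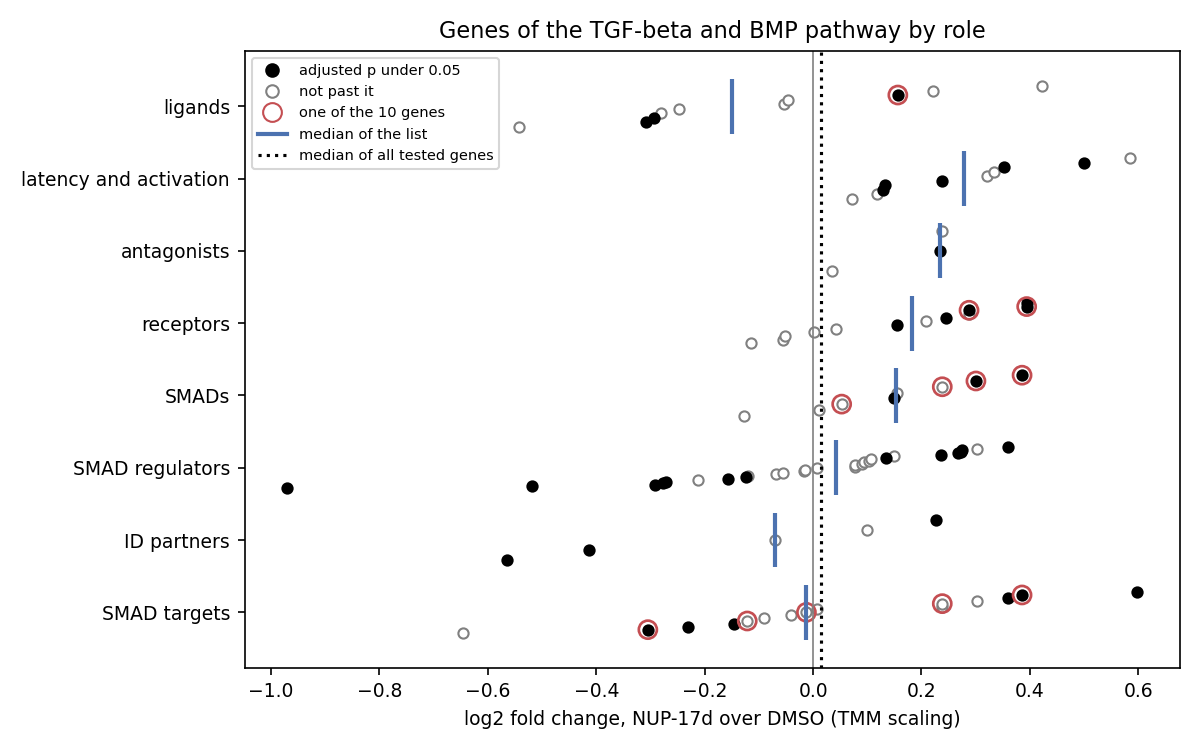
Log2 fold change, NUP-17d over DMSO under TMM scaling (horizontal axis), of every tested gene of 8 lists of the pathway (rows; the height within a row only spreads the points), filled where the adjusted p was under 0.05 and ringed for the 10 genes described above. Blue lines mark list medians, from -0.15 for ligands to 0.28 for the latency genes, and the dotted line marks the median of all tested genes, 0.014.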

How the data were processed

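RNA was sequenced from 3 DMSO and 3 NUP-17d cultures. Per the labels, mRNA was enriched with oligo-dT and sequenced on DNBseq, whereas the study's methods name a stranded Illumina kit, and whether counting used strand is not stated. The aligner and counter are not given in the sources used here, and the submitters' processing notes name the build mm10. The authors deposited expected counts per gene (27.8% to 28.5% of values not whole) and FPKM, scaled by length and library total. A gene missing from a table was taken as 0.

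Expected counts were rounded and tested with edgeR 4.0.16 in R 4.3.3 (filterByExpr, TMM, quasi-likelihood test, 3 against 3). The step was tested on simulated data that held no shift in library composition, so its handling of such a shift was not tested. Alternatives were DESeq2 1.42.0, other scalings and filters, limma 3.58.1 on log2(FPKM + 1) or log2(FPKM + 0.1) for genes with mean FPKM of at least 1 or without that filter, a replicate block, and leaving out each culture. FPKM ranked genes within a group. Counting error falls with reads, from 100 to 172 per culture for Smad6 to 6501 to 9325 for Tgfb1.

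Samples of a group differed by more than sampling noise (chi-square per degree of freedom 1.8 to 4.41), so none was counted as a duplicate. Beside the 10 genes, up to 3 others per list with the lowest p-values, and Plek2, were named. The genes, lists and tests were chosen with earlier results of these data known.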

Additional observations from a re-analysis of the deposited data

How the results depend on the processing

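Of the 10 genes, Smad7, Tgfb1, Tgfbr1 and Tgfbr2 kept their direction and their call under all 16 alternatives run. Library totals only, and limma on log2(FPKM + 1), on log2(FPKM + 0.1) and on log2(FPKM + 1) without a filter, are the settings without composition correction, and in that order they called 8, 8, 8 and 8 of the 10 genes higher and 0, 0, 0 and 0 lower, 51, 42, 42 and 47 of the other pathway genes higher and 4, 4, 4 and 4 lower, and 8458, 7891, 7768 and 8012 of all genes higher and 657, 567, 555 and 639 lower. DESeq2 called 1162 of all genes higher, and the cause was not tested. In the same order of settings the log2 fold changes that changed sign were 0.15, 0.13, 0.14 and 0.13 for Id1, 0.25, 0.25, 0.26 and 0.25 for Id2, and 0.037, 0.040, 0.040 and 0.040 for Junb, and Smad9 had 0.14 under library totals only and 0.019 under limma without a filter. With 1 culture left out, the called genes of the 10 numbered 4 to 6 higher and 1 lower, those of the other pathway genes 14 to 18 and 12 to 13, and those of all genes 1642 to 1827 and 2035 to 2181. Among these fits the value lay between -0.070 and 0.024 for Id2, between -0.34 and 0.12 for Smad9 and between -0.019 and 0.091 for Dand5, none of which passed the test. Deviations of same-numbered cultures of the 2 groups correlated by -0.032 to 0.034 over 3 pairs. Those of differently numbered cultures correlated by -0.055 to 0.083 over 6 pairs. With 3 cultures per group these values cannot decide whether cultures shared an animal or a day. With the replicate block 4543 genes were called in place of 4346, with 4329 in common, and none of the 10 genes changed its call.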
